A study of Homo sapiens with 2 samples.

Results

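The SOXB and SOXC genes encode 8 transcription factors of the SOX family: SOX1, SOX2 and SOX3 (SOXB1), SOX14 and SOX21 (SOXB2), and SOX4, SOX11 and SOX12 (SOXC). They were taken by gene symbol, and all 8 were found on 1 row each among 24462 symbols. RNA sequencing covered 1 library of neural precursor cells (NPC) and 1 library of undifferentiated human embryonic stem cells (hESC). The NPC were derived from the H9 line by co-culture with MS5, a mouse stromal feeder line, and the hESC were H9 cells themselves, an established pluripotent line. Neither group carried a stated genetic change or drug treatment, and no time in culture is used here. With 1 library per group there was no replicate check and no test between conditions, so intervals cover counting error only and no p-value was computed.

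SOX factors bind DNA in the minor groove through an HMG box and bend it, usually beside a partner factor that helps to choose the site. SOXB1 factors keep neural progenitors undifferentiated, and SOX2 also works with OCT4 (POU5F1) in pluripotent cells. SOXB2 factors act mainly as repressors and counter SOXB1 in the chick and mouse neural tube. SOXC factors are known from mouse and chick work to act later, switching on neuronal genes in cells that leave the progenitor state, and they are also active in mesenchyme.

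The HMG box is the part the 8 factors have in common, and its coding sequence is where reads of different members are hardest to tell apart. The stretches below are the 89 bases of this box that SOX1 and SOX2 share without a mismatch and, for each other member, the best ungapped counterpart in its coding sequence (GENCODE 29 transcripts). They are shown to compare the paralogs, and capitals mark bases that differ from SOX1 and SOX2.
SOX1: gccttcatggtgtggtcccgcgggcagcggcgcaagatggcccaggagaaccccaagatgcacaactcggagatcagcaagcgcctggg
SOX2: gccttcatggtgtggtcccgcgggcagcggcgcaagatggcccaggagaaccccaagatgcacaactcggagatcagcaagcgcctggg
SOX3: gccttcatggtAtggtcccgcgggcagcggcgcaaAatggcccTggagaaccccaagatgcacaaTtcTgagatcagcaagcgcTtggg
SOX21: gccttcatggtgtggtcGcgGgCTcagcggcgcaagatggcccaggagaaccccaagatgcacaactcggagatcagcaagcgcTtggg
SOX14: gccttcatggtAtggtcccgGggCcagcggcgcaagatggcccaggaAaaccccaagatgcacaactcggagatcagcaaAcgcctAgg
SOX4: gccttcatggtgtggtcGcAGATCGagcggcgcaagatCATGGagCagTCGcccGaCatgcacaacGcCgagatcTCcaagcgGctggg
SOX12: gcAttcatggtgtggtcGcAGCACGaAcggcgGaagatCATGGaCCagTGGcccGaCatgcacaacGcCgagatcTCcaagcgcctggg
SOX11: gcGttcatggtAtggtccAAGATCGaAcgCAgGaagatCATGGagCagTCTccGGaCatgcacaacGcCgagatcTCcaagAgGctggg

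SOX21 differed from the SOX1 and SOX2 stretch at 5 of 89 bases, and SOX3 and SOX14 at 6 bases each. The SOXC genes differed at 23 bases (SOX4), 26 bases (SOX12) and 31 bases (SOX11). Among 28 pairs of members, 3 shared an exact run of 50 bases or more: SOX1 with SOX2 (89 bases), and SOX21 with SOX1 and with SOX2 (60 bases each). Between SOXB and SOXC members the longest shared run was 28 bases. The 89 bases are 3.13% of the SOX1 and 3.54% of the SOX2 transcript. How reads that fit several places were counted is not given in the sources used here, and the part of such reads in the counts was not tested.

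The NPC library held 24065750 counted reads and the hESC library 19686728. Levels are CPM, the count of a gene relative to the effective library size after TMM (trimmed mean of M values) scaling, and ratios are NPC over hESC with an exact 95% counting interval. A gene with at least 5 CPM in either library was called measured. It was called higher or lower when the near bound of its interval was at least 2-fold away from no change. A gene that passed the filter in 1 library alone could be called in that library's favour only, so counts of such calls are a description. Of 13535 measured genes, 19.6% were higher and 19.8% lower, so that 49.7% of calls were higher. With the library total in place of TMM, which adds 0.36 to every log2 ratio, 27% were higher and 13.2% lower, and 67.2% of calls were higher.

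The labels were set against marker genes. The 6 pluripotent markers summed to 96.9 CPM in NPC and 8704 CPM in hESC. All 6 were lower in the NPC library, but 4 of them (POU5F1, NANOG, LIN28A and TDGF1) passed the filter through hESC alone. The 8 neural progenitor markers summed to 4425 CPM in NPC and 637 CPM in hESC. Of 7 measured ones 6 were higher, of which PAX6, ZIC1 and SOX1, itself a member, passed the filter through NPC alone. Most of the NPC sum was VIM, with 3291 CPM in NPC and 237 CPM in hESC. Most of the hESC sum was NES, which had 366 CPM in NPC and 355 CPM in hESC and did not pass the rule. HES5 was under the filter in both libraries. None of these markers was at 0 in either library.

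Of the 8 members, 7 were measured, of which 3 were higher in the NPC library (SOX1, SOX21 and SOX11) and 0 were lower. Over all measured genes, 19.6% were higher and 19.8% lower. SOX2, SOX3, SOX4 and SOX12 were measured and did not pass the rule, and SOX14 was under the filter in both libraries. SOX1 and SOX21 passed the filter through the NPC library alone, so they could not have been called lower. Of the 5 members with at least 5 CPM in the hESC library, 1 was higher and 0 lower. Among all genes at that level, 11.7% were higher and 22.6% lower. The 7 measured members had a median log2 ratio of 1.13, beside -0.09 for all measured genes. With SOX14, which was under the filter, the member median was 0.77. Both member medians include SOX1 (6.69) and SOX21 (3.50), which could enter through a high NPC level alone, so they are a description. For the 5 members with at least 5 CPM in the hESC library, the middle log2 ratio was 0.41 (SOX2). A median for all genes at that level is not given here.

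**Figure D1:**
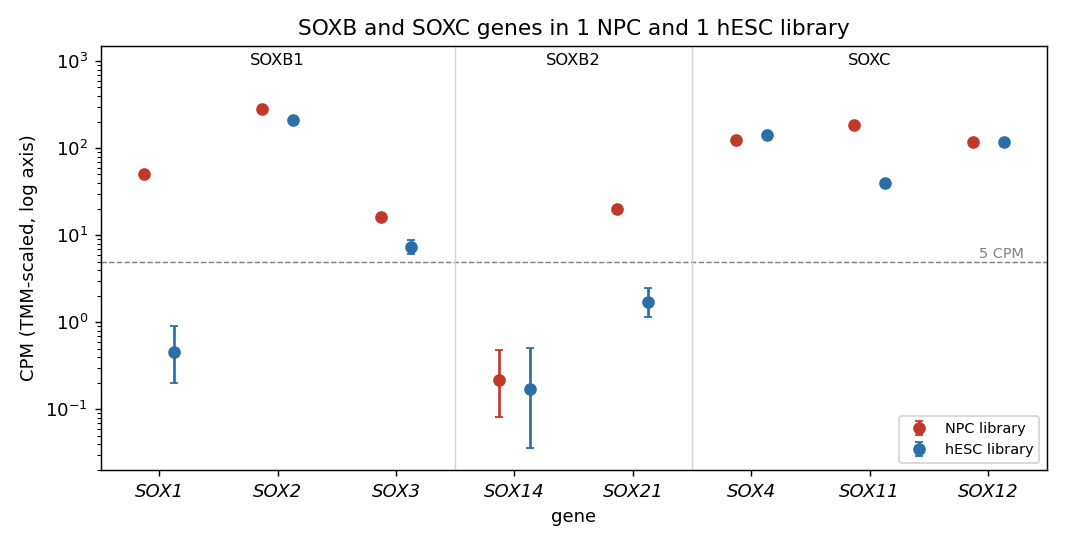
CPM (TMM-scaled, log axis) of each SOXB and SOXC gene in the NPC library (red, left) and the hESC library (blue, right); bars are exact 95% counting intervals and the dashed line is the filter of 5 CPM. SOX1, SOX21 and SOX11 lie apart between the libraries, while SOX4 and SOX12 lie close together and SOX14 lies under the filter in both.

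SOX1, an early marker of neuroectoderm, had 1376 reads in NPC and 8 reads in hESC. Its level was 50.6 CPM (47.9 to 53.3) in NPC and 0.460 CPM (0.199 to 0.907) in hESC. The ratio was 103 (55.6 to 255), and 99.1% of measured genes had a lower log2 ratio. The level was above that of 68.9% of measured genes in NPC and of 1.71% in hESC.

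SOX2 was the most abundant SOXB gene in both libraries. It had 7698 reads in NPC and 3700 reads in hESC, which gave 283 CPM in NPC and 213 CPM in hESC. The level was above 96.5% of measured genes in NPC and above 92.4% in hESC. The ratio was 1.33 (1.28 to 1.38), so the difference exceeded counting error and stayed under 2-fold. With the library total its log2 ratio was 0.77 in place of 0.41.

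SOX3, the X-linked SOXB1 gene, had 441 reads in NPC and 128 reads in hESC. That corresponded to 16.2 CPM in NPC and 7.36 CPM in hESC. The ratio was 2.20 (1.80 to 2.70), whose lower bound missed the 2-fold rule. SOX3 passed the rule with the library total (log2 ratio 1.49), with the trend with transcript length removed (1.38) and when the point ratio alone was used.

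Together the 3 SOXB1 genes had 350 CPM in NPC and 221 CPM in hESC, a ratio of 1.58 (1.53 to 1.65). Reads per kb of transcript allow the genes to be set beside each other within a library, and shares of such a sum do not depend on scaling between libraries. The shares do carry the trend of ratios with transcript length, which was not removed from them. Median log2 ratios were -0.67 in the shortest and 0.34 in the longest decile of measured genes by length. SOX2 made up 81.6% of the SOXB1 sum per kb in NPC and 95.9% in hESC. SOX1 made up 12.9% in NPC and 0.183% in hESC, and SOX3 made up 5.51% in NPC and 3.91% in hESC. The order was therefore SOX2, SOX1, SOX3 in NPC and SOX2, SOX3, SOX1 in hESC.

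The ratio of SOX1 reads to SOX2 reads was 82.7 times as high in NPC as in hESC (41.8 to 192). The ratio of SOX2 reads to SOX3 reads was 0.604 times as high (0.490 to 0.740), so the balance of these genes differed between the libraries by more than counting error.

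**Figure D2:**
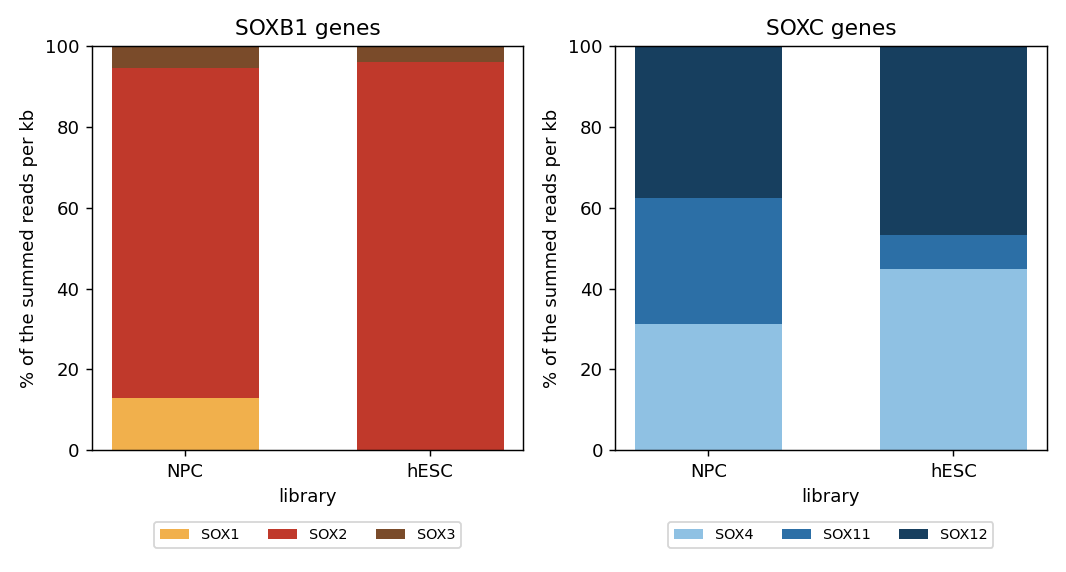
Share (%) of each gene in the summed reads per kb of transcript of its group, SOXB1 on the left and SOXC on the right, with the NPC library left of the hESC library in each panel. SOX1 takes 12.9% of the SOXB1 sum in NPC and is too small to see in hESC (0.183%), and SOX11 takes 31.3% of the SOXC sum in NPC and 8.40% in hESC.

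SOX1 and SOX2 have the same 89 bases of HMG box shown above but differed most in ratio among the SOXB1 genes. Their promoters, from 250 bases before to 50 bases after the RefSeq start, are shown here to compare these paralogs (RefSeq, GRCh38.p14). SOX1 is at chr13:112066899-112067198 and SOX2 at chr3:181711675-181711974, both on the plus strand. Capitals mark CCAAT, the core of the CCAAT box, and ATGCAAA, the first bases of the octamer that POU factors bind, each on either strand.
SOX1: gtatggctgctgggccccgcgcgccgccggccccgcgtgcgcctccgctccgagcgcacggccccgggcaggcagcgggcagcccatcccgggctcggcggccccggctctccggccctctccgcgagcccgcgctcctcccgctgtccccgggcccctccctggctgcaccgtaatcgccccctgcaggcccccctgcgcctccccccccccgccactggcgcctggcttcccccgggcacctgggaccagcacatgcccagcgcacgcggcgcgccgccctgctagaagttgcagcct
SOX2: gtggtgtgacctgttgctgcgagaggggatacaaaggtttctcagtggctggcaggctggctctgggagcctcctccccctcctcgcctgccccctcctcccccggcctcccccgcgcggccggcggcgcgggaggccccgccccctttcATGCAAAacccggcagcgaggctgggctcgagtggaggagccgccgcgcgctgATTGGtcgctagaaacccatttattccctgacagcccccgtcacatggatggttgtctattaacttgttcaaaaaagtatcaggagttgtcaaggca

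The SOX1 window was 80% G and C with 37 CpG, and the SOX2 window 63.3% with 20 CpG, beside medians of 58.7% and 14 CpG over 35116 promoters of that length. SOX2 held CCAAT starting 47 bases and ATGCAAA starting 100 bases before its start, and the SOX1 window held neither. CCAAT was in 34.6% of all promoters and ATGCAAA in 4.46%. Of the other motifs searched on both strands, the GC box GGGCGG was in both windows and in 45% of all promoters. The SOX-like hexamer ACAAAG was in the SOX2 window and in 16.1% of all promoters. Neither window held the hexamer ACAATG (10.8% of all promoters), the TATA box TATAAA (11.5%) or the full octamer ATGCAAAT (1.77%), whose first bases are ATGCAAA. Among the other members, the windows of SOX3, SOX21, SOX4 and SOX12 held CCAAT, and that of SOX12 also held ATGCAAAT. A link of these motifs to the ratios was not tested. A match is a description of letters, not of binding, and GENCODE 29 places the SOX1 start 498 bases further downstream.

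SOX21, a SOXB2 repressor, had 541 reads in NPC and 30 reads in hESC. Its level was 19.9 CPM (18.2 to 21.6) in NPC and 1.73 CPM (1.16 to 2.46) in hESC. The ratio was 11.3 (7.98 to 17.2), and the call was lost only under a filter of 20 CPM, which the gene did not reach. SOX14, the other SOXB2 gene, had 6 reads in NPC and 3 reads in hESC. Its ratio of 1.19 had an interval of 0.273 to 7.90, so no difference was detectable at this depth.

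Among the SOXC genes SOX11 was higher in the NPC library and SOX4 and SOX12 were not called. SOX11, which in mouse promotes neuronal differentiation, had 5093 reads in NPC and 699 reads in hESC. Its level was 187 CPM (182 to 192) in NPC and 40.2 CPM (37.3 to 43.3) in hESC. The ratio was 4.65 (4.30 to 5.05), above that of 90.2% of measured genes. SOX11 is the member with the longest transcript, and its log2 ratio of 2.22 was 1.82 with the length trend removed, still past the rule.

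SOX4, the broadly active SOXC gene, had 3398 reads in NPC and 2501 reads in hESC. Its level was 125 CPM in NPC and 144 CPM in hESC, a ratio of 0.868 (0.824 to 0.915). The sign of its log2 ratio depended on scaling, at -0.20 with TMM and 0.15 with the library total. SOX12, generally the weakest activator of the group in mouse work, had 3235 reads in NPC and 2067 reads in hESC. Its level was 119 CPM in both libraries, with an interval of the ratio from 0.946 to 1.06. With the library total its log2 ratio was 0.36.

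The 3 SOXC genes together had 431 CPM in NPC and 303 CPM in hESC, a ratio of 1.42 (1.38 to 1.47). Per kb of transcript, SOX11 made up 31.3% of the SOXC sum in NPC and 8.40% in hESC. SOX4 made up 31.2% in NPC and 44.8% in hESC, and SOX12 37.5% in NPC and 46.8% in hESC. SOX11 was the lowest of the group in hESC with each length used. Its rank in NPC depended on that length: it was the highest per coding length (39.9%, against 35.4% for SOX12 and 24.7% for SOX4) and the lowest per RefSeq transcript length (28.9%, against 35.7% for SOX4 and 35.4% for SOX12). The ratio of SOX11 reads to SOX12 reads was 4.66 times as high in NPC as in hESC (4.22 to 5.13). The ratio of SOX4 reads to SOX12 reads was 0.868 times as high (0.804 to 0.937).

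**Figure D3:**
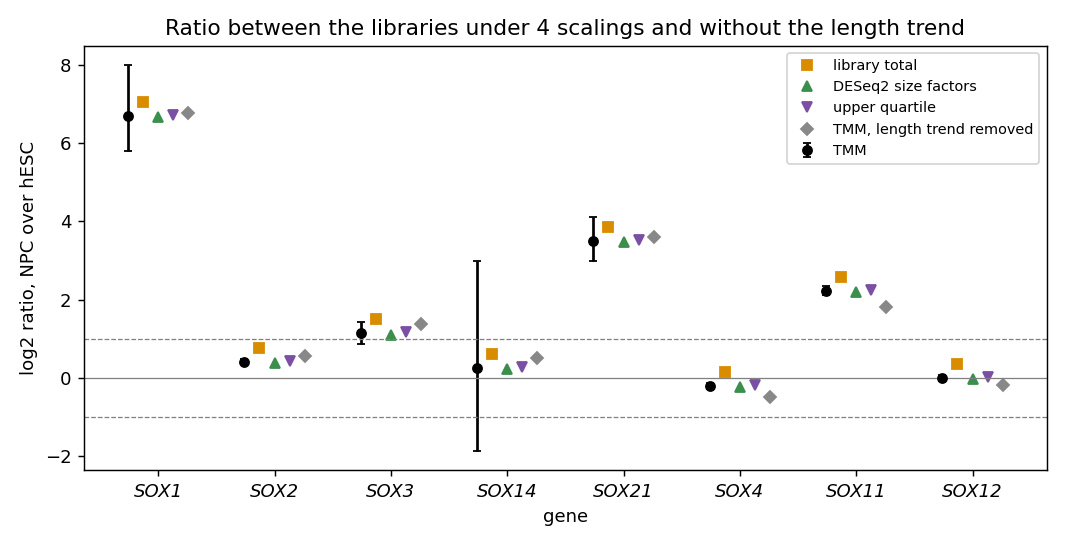
Log2 ratio, NPC over hESC, of each SOXB and SOXC gene with TMM (black, with the 95% counting interval), 3 other scalings, and TMM with the length trend removed; the dashed lines mark 2-fold. SOX1, SOX21 and SOX11 stay above the upper line in all 5, SOX3 lies near it, and SOX4 is above 0 with the library total alone.

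Per kb, the order of the 8 genes in NPC was SOX2 (113 CPM per kb), SOX12 (25.7), SOX11 (21.5), SOX4 (21.3), SOX1 (17.8), SOX3 (7.60), SOX21 (7.16) and SOX14 (0.107). In hESC it was SOX2 (84.7 CPM per kb), SOX12 (25.7), SOX4 (24.6), SOX11 (4.61), SOX3 (3.45), SOX21 (0.621), SOX1 (0.162) and SOX14 (0.0840). The order of neighbours depended on the length used. Per RefSeq transcript length SOX4 stood above SOX12 in both libraries (25.7 against 25.4 CPM per kb in NPC, and 29.5 against 25.4 in hESC), and per coding length SOX21 stood above SOX3 in NPC (23.9 against 12.1). SOX2 was the highest with each of these lengths. The SOX1 level in NPC was 11.1 CPM per kb with the RefSeq length in place of 17.8.

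Transcripts named after a member were called higher in NPC. SOX2-OT, the long non-coding RNA whose locus spans SOX2, had 1460 reads in NPC and 107 reads in hESC, a ratio of 8.68 (7.16 to 10.7), against 1.33 for SOX2. SOX21-AS1 had 265 reads in NPC and 13 reads in hESC, a ratio of 12.6 (7.49 to 24.8), close to the 11.3 of SOX21. With 9.74 CPM in NPC and 0.748 CPM in hESC, SOX21-AS1 passed the filter through NPC alone. In GENCODE 29 neither shares exonic bases with the SOX gene it is named after. The strand setting of the counting is not given in the sources used here.

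The genes with the most similar pair of levels, by distance in log2(CPM + 1) over the 2 libraries, were DACH1 and PCDH15 for SOX1 (distances 0.055 and 0.11). DACH1 had 52.6 CPM in NPC and 0.460 CPM in hESC. For SOX2 they were KDM3B and RERE, for SOX3 PHACTR1 and MBNL3, and for SOX21 SLC16A14 and SLITRK1. For SOX11 they were GAP43, a growth cone protein gene with 174 CPM in NPC and 41.9 CPM in hESC, and ZFP90. For SOX4 the nearest was CPSF1, and for SOX12 they were ZC3H7B and ILK. With 2 libraries such likeness is a description of levels alone.

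**Figure D4:**
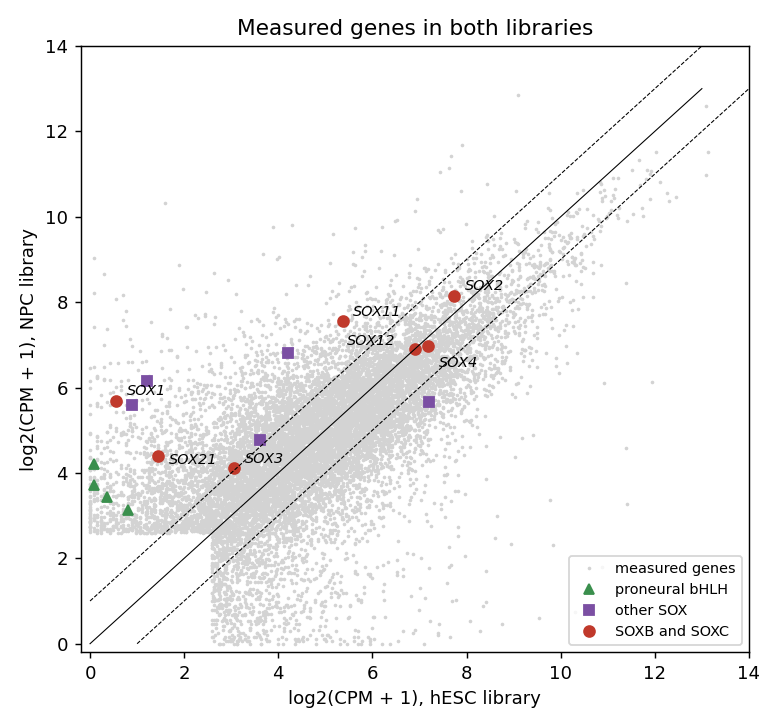
Log2(CPM + 1) in the NPC library (vertical) against the hESC library (horizontal) for measured genes (grey), the 7 measured SOXB and SOXC genes (red circles), other SOX genes (purple squares) and proneural bHLH genes (green triangles); the solid line is equality and the dashed lines 2-fold. SOX2, SOX4 and SOX12 lie between the dashed lines, SOX3 near the upper one, and SOX1, SOX21 and SOX11 above it.

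Among the other SOX genes calls went both ways. Of 11 genes in the SOXD, SOXE and SOXF groups with SOX15 and SOX30, 5 were measured, of which 3 were higher and 1 lower. The shares over all measured genes were 19.6% higher and 19.8% lower. SOX6 (53.1-fold, 33.1 to 98.2), SOX5 (51.9-fold, 35.2 to 83.8) and SOX9 (6.44-fold, 5.72 to 7.28) were higher in NPC. SOX13 was 2.97-fold lower (2.78 to 3.17). SOX5 and SOX6 passed the filter through the NPC library alone, so of the 3 genes at 5 CPM in both libraries 1 was higher and 1 lower. In reads, not scaled for depth, the 8 SOXB and SOXC genes had 21788 in NPC and 9136 in hESC, and the other 11 genes had 8389 in NPC and 3210 in hESC. After scaling, the 8 genes had 801 CPM in NPC and 526 CPM in hESC. The other 11 genes had 308 CPM in NPC and 185 CPM in hESC.

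Partners of SOXB1 factors went both ways. Of 10 listed partner genes 9 were measured, of which 4 were higher and 4 lower in NPC, and the median of their log2 ratios was 0.41. The shares over all measured genes were 19.6% higher and 19.8% lower. POU5F1, the partner of SOX2 in pluripotent cells, had 0.662 CPM in NPC and 1259 CPM in hESC. NANOG (78.6-fold, 62.5 to 102) and SALL4 (41-fold, 32.2 to 53.7) were lower too. The POU factor genes POU3F2, with 28.4 CPM in NPC and 0.575 CPM in hESC, and POU3F3, with 51.5 CPM in NPC and 1.15 CPM in hESC, were higher, and so was PAX6, a neuroectoderm factor (78.4-fold, 50.9 to 136). POU3F1 was 7.42-fold lower (6.11 to 9.12). CHD7, a chromatin remodeler that binds SOX2 in mouse neural stem cells, had 293 CPM in NPC and 220 CPM in hESC, a ratio of 1.33 (1.28 to 1.39). PAX6, POU3F2 and POU3F3 passed the filter through the NPC library alone, and all 4 lower partners through the hESC library alone. The filter thus left only 1 direction open to all called partners but OTX2, which was 13.8-fold higher (12.2 to 15.8).

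Genes that OCT4 and SOX2 are known to activate together in pluripotent cells had low levels in NPC where they were measured. All 8 measured genes of 10 listed were lower (median log2 ratio -7.86), but each passed the filter through the hESC library alone, so a call in the other direction was not possible for them. TDGF1, a Nodal co-receptor gene, had 0.515 CPM in NPC and 745 CPM in hESC, and ZFP42 had 0.368 CPM in NPC and 169 CPM in hESC. FGF4, under the filter, had 0 reads in NPC and 20 reads in hESC, and FBXO15, also under it, had 103 reads in NPC and 17 reads in hESC. SOX2 itself, with 283 CPM in NPC, stayed under the 2-fold rule.

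Genes reported as SOXB1 targets in neural cells, mostly in mouse, went several ways. Of 13 listed genes 10 were measured, of which 4 were higher and 1 lower, and the median of their log2 ratios was 0.81. The shares over all measured genes were 19.6% higher and 19.8% lower. SIX3, a forebrain homeobox gene, had 2582 reads in NPC and 6 reads in hESC, a ratio of 254 (126 to 750). NR2E1, the nuclear receptor gene TLX, was 22.8-fold higher (13.5 to 46.3), and FABP7, a radial glia gene, 5.31-fold higher (4.78 to 5.93). SIX3 and NR2E1 passed the filter through the NPC library alone. Of the 8 listed genes at 5 CPM in both libraries, 2 were higher and 1 lower. Among all genes with at least 5 CPM in hESC, 11.7% were higher and 22.6% lower. GLI3 was 2.89-fold higher (2.68 to 3.13), while MYCN had 27.8 CPM in NPC and 136 CPM in hESC and was 4.90-fold lower (4.51 to 5.32). The filament gene NES had 366 CPM in NPC and 355 CPM in hESC. HES5, a Notch effector gene with 73 reads in NPC and 3 reads in hESC, was under the filter in both libraries. So was the ligand gene SHH, with 43 reads in NPC and 1 read in hESC.

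Of 6 listed SOXC targets all were measured, of which 3 were higher and 0 lower, and the median of their log2 ratios was 1.97. Over all measured genes, 19.6% were higher and 19.8% lower. Of the 5 targets at 5 CPM in both libraries, 2 were higher and 0 lower. Among all genes with at least 5 CPM in hESC, 11.7% were higher and 22.6% lower. TUBB3, DCX and MAP2 are also listed as neuron markers, and NEUROD1 is also in the proneural list. MAP2, a dendritic microtubule protein gene, had 861 CPM in NPC and 13.7 CPM in hESC. DCX, expressed in young migrating neurons, was 9.77-fold higher (8.77 to 10.9) in NPC, and NEUROD1, which passed the filter through NPC alone, 10.1-fold higher (5.99 to 20). TUBB3, the beta-III tubulin gene, had 196 CPM in NPC and 213 CPM in hESC. TEAD2 had 124 CPM in NPC and 174 CPM in hESC, and EZH2 198 CPM in NPC and 127 CPM in hESC.

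Proneural genes, which encode bHLH factors that start neurogenesis, were near the floor in hESC. All 4 measured genes of 6 listed were higher in NPC (median log2 ratio 6.05), but each passed the filter through the NPC library alone. NEUROG1 had 479 reads in NPC and 1 read in hESC, a ratio of 204 (54.7 to 12115), and NEUROG2 had 333 reads in NPC and 1 read in hESC. NEUROD4 was 30.8-fold higher (14.3 to 105). Under a filter of 20 CPM none of these genes was left.

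**Figure D5:**
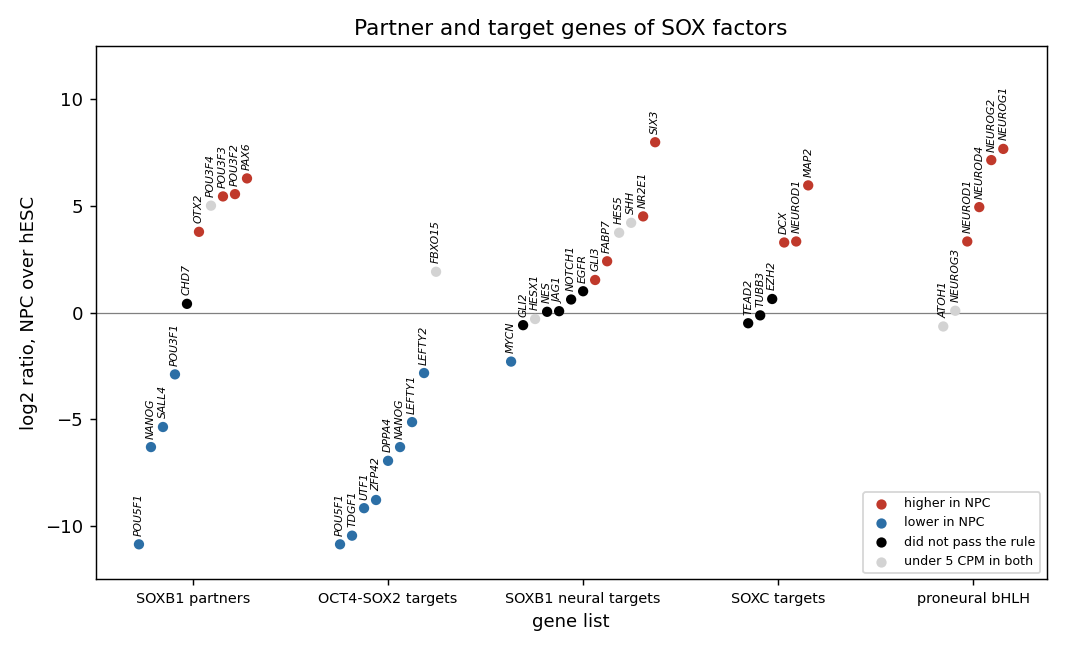
Log2 ratio, NPC over hESC, of each gene with reads in both libraries in 5 lists of SOX partners, targets and proneural factors, coloured by call (red higher, blue lower, black measured without a call, grey under 5 CPM in both). The 8 measured OCT4-SOX2 targets, which passed the filter through hESC alone, lie below 0, the 4 measured proneural genes, which passed it through NPC alone, lie above 0, and the SOXB1 partner list holds 4 calls each way.

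Levels of markers of other cell types differed too. Beside the counts below, the shares over all measured genes were 19.6% higher and 19.8% lower. Neuron markers were higher for 6 of 9 measured genes and lower for 1, with a summed level of 1745 CPM in NPC and 357 CPM in hESC. The lower one, RBFOX3, had 2.17 CPM in NPC and 22.8 CPM in hESC and passed the filter through hESC alone. The largest part of the NPC sum was MAP2 (861 CPM). That of the hESC sum was TUBB3 (213 CPM), which did not pass the rule. Of the 5 neuron markers at 5 CPM in both libraries, 3 were higher and 0 lower. Among all genes with at least 5 CPM in hESC, 11.7% were higher and 22.6% lower. Of 8 stroma markers 7 were measured and 6 were higher, with a sum of 969 CPM in NPC and 395 CPM in hESC. Of these 6, 4 (COL3A1, DCN, PDGFRA and POSTN) passed the filter through NPC alone. No neuron or stroma marker was at 0. Of 6 neural crest markers 4 were measured, 2 higher and 1 lower, with sums of 80.4 CPM in NPC and 75.3 CPM in hESC. FOXD3 was at 0 in NPC and TFAP2B at 0 in hESC. Of 6 glia markers 2 were measured, 1 higher and 1 lower, with sums of 43.8 CPM in NPC and 28.2 CPM in hESC. Each called crest or glia marker passed the filter in 1 library alone. The part of these cells in the levels of SOX1, SOX21, SOX11 or their listed targets was not tested, and neither was that of reads from the mouse feeder cells. In bulk RNA, fewer cells of a type and less RNA per cell cannot be told apart.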

How the data were processed

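RNA was measured in 1 NPC and 1 hESC library made from 1.3 µg of total RNA each with a SMARTER mRNA-Seq kit, per the labels' protocols. The authors deposited raw counts of reads, listed by gene symbol. TopHat, edgeR and the hg19 build are named in the submitters' processing notes, with no role stated. How reads were counted, with which strand setting and annotation, is not given in the sources used here.

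For 286 symbols on several rows the row with most reads was kept, which set aside 0.107% of NPC and 0.0878% of hESC reads. TMM factors (edgeR 4.0.16, R 4.3.3) were 1.13 for NPC and 0.884 for hESC. Point ratios added 0.5 to each count, and intervals were exact (Clopper-Pearson) ones of the binomial share that NPC took of each gene's counts. Ratios of 2 genes between libraries have exact conditional intervals. With 1 library per group the variation between replicates that edgeR's test needs could not be estimated, so the test was not run. A batch cannot be told apart from the group. A count of 0 allows up to 0.110 CPM in NPC and 0.173 CPM in hESC (3 reads). No molecular identifiers are named in the labels, so reads are not independent molecules.

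Lengths are those of the longest GENCODE 29 transcript (GRCh38), found for all 8 members and 94.8% of measured genes. Promoters were found for 6 members in the RefSeq table. Tried in place of these were upper-quartile factors, DESeq2 1.42.0 size factors, the library total, filters of 1 and 20 CPM or none, a 4-fold bound, the point ratio alone, summed rows, removal of the length trend (lowess, fraction 0.5, statsmodels 0.14.6) and other length units. On simulated counts for this comparison over 24462 genes, 0 of 67 genes changed 1.5-fold, 67 of 67 changed 3-fold, 66 of 66 changed 8-fold and 0 of 12634 unchanged genes were called. These counts carried counting error only, with no other variation between libraries, and the changed genes had a mean of at least 20 CPM. They check the calling rule and give no error rate for 1 library per group or for less abundant genes. Python 3.11.15 with scipy 1.17.1, pandas 2.3.3, numpy 2.4.6 and matplotlib 3.10.9 did the rest.

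The members and lists were chosen with earlier results of these data known. Some genes are in several lists, so the counts of different lists are not separate observations. The text names all members, up to 3 higher and 3 lower genes of a list by the farthest bound and the 2 nearest genes of each measured member. Other genes named, such as POU3F1, CHD7, NES, HES5, SHH, GLI3, TUBB3, TEAD2, EZH2, FGF4 and FBXO15, were chosen after their values were seen. Some genes that this choice takes are left out and not reported here.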

Additional observations from a re-analysis of the deposited data

How the results depend on the processing

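The calls of SOX1, SOX11, SOX2, SOX4 and SOX12 were the same under all 10 alternatives, and SOX14 was called under none. SOX3 was called higher with the library total (log2 ratio 1.49), with the length trend removed (1.38) and by the point ratio alone (1.13). SOX21 was no longer called under a filter of 20 CPM (log2 ratio 3.50, unchanged). Log2 ratios ranged from 6.66 to 7.05 for SOX1, 3.47 to 3.86 for SOX21, 1.82 to 2.57 for SOX11, 0.38 to 0.77 for SOX2, -0.18 to 0.36 for SOX12 and -0.49 to 0.15 for SOX4. Among the lists, 1 OCT4-SOX2 target (FBXO15) was higher with a filter of 1 CPM or none, 0 proneural genes were higher with a filter of 20 CPM, and 0 other SOX genes were lower with a 4-fold bound. Other list counts changed too. Higher SOXB1 neural targets ranged from 3 to 6, higher partners from 4 to 5 and higher other SOX genes from 3 to 4. Higher SOXC targets ranged from 2 to 3 and lower OCT4-SOX2 targets from 6 to 9.

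The share of SOX2 among SOXB1 genes was 84.3% in NPC and 97.4% in hESC per coding length, and 85.7% in NPC per RefSeq transcript length, an alternative chosen after seeing the data. That of SOX1 in NPC was 12.2% per coding length and 8.44% per RefSeq length. The share of SOX11 among SOXC genes was 43.4% in NPC and 13.3% in hESC as plain reads, 39.9% in NPC and 11.8% in hESC per coding length, and 28.9% in NPC per RefSeq length. No paired analysis was possible because each group has 1 library. Depth limits SOX14, and the hESC value of SOX1 rests on 8 reads.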
